A study of Mus musculus with 2 samples.

Results

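The tumour necrosis factor (TNF) superfamily ligands and receptors were examined in CD4 T cells of the mouse small intestinal epithelium. Genes were taken by symbol: any single-gene row whose symbol begins with Tnfsf or Tnfrsf and a digit, together with Tnf, Lta, Ltb, Ltbr, Fas, Fasl, Cd27, Cd40, Cd40lg and Cd70. This gave 36 genes of the 20663 with a probe set of their own, 13 ligands and 23 receptors, measured by 56 of the 45101 probe sets. Where a gene had several probe sets, the one with the highest log2 signal averaged over the arrays was read, and its other probe sets are given beside it. Intraepithelial lymphocytes (IEL) were sorted from RAG knockout mice on the C57BL/6 background, 8 weeks after they had received naive CD4 T cells, a transfer model of colitis. CD4CD8aa IEL carried CD8 alpha beside CD4, and CD4 IEL did not. Both populations came from the same kind of host, which makes no T or B cells of its own but keeps its innate lymphoid, myeloid, epithelial and stromal cells. Neither the labels nor the design text give the antibodies, the sort gates or how many animals were pooled.

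RNA of each population was hybridised to 1 array, so no difference has a replicate check or a test, and precision is limited by having 1 array on each side. Signals are multiples of the array median, which was 81.1 for CD4CD8aa IEL and 82.5 for CD4 IEL before the division. A floor of 0.4 times the median, the higher of the arrays' 30th percentiles, was set before taking log2, and a gene was detected when its brighter array lay above it. Where the dimmer array lay below the floor, the fold is given as a bound, written "at least". Differences are log2 CD4CD8aa IEL minus CD4 IEL. The yardstick for them is the SD of log2 differences among probe sets of the same gene, which was 0.807 below the array median, 0.354 above 64 times the median and between these elsewhere, and which covers neither animals nor RNA preparations. All 7 T cell markers lay above the floor on both arrays, with a summed signal of 1369 in CD4CD8aa IEL and 1228 in CD4 IEL. Cd3e, with 118 in CD4CD8aa IEL and 59.0 in CD4 IEL, was the 1 marker at least 2-fold higher, and 0 were lower. Of all detected genes, 6.65% were higher and 6.26% lower by that measure. The sort marker Cd8a had a signal of 291 in CD4CD8aa IEL and 3.79 in CD4 IEL. In RNA of sorted bulk cells, fewer cells of a type and less RNA per cell cannot be told apart.

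TNF superfamily ligands are mostly trimeric membrane proteins, some of them shed, that bind receptors with cysteine-rich extracellular repeats. Receptors with a cytoplasmic death domain can recruit FADD or TRADD and start caspase or NF-kappa-B signalling. Many of the others recruit TRAF adaptors, and some are decoys. On T cells, receptors such as OX40, 4-1BB, GITR and CD27 act as costimulators after antigen contact, and in the gut lymphotoxin and LIGHT act on stromal and epithelial cells through the lymphotoxin beta receptor.

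The largest differences of the family were lower signals in CD4CD8aa IEL. Tnfrsf25, which encodes the TL1A receptor DR3, was 14.3-fold lower, Tnfrsf13b, which encodes the BAFF and APRIL receptor TACI, 9.56-fold lower and Tnfrsf4, which encodes OX40, 5.65-fold lower. The ligands Tnfsf11 (RANKL) and Tnfsf8 (CD30 ligand) were 4.49-fold and 4.18-fold lower. Cd27, a costimulatory receptor, was the clearest difference in the other direction, 3.54-fold higher. Of the 36 genes, 34 were detected, 28 of them on both arrays. Among the 34, 8 were at least 2-fold lower, or 23.5%, against 6.26% of the 17376 detected genes of the array. At least 2-fold higher were 2, or 5.88%, against 6.65% of all detected genes, so the higher count lay near the background. The median log2 difference was -0.15 over the family and 0.06 over all detected genes. Taken by role, 4 of 13 ligands were at least 2-fold lower and 0 higher, with a median of -0.85, and 4 of 21 detected receptors were lower and 2 higher, with a median of -0.05.

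The lower side was fuller at larger differences. At least 4-fold lower were 5 of the 34 genes, against 0.961% of all detected genes, and 0 were at least 4-fold higher, against 0.391%. Among the 14033 genes above the floor on both arrays, Tnfrsf25 had the 16th lowest difference, Tnfrsf13b the 26th and Tnfrsf4 the 58th, and Cd27 had the 56th highest. Beyond 2 same-gene SD of 0 lay 8 genes on the lower side, against 2.98% of all detected genes, and 2 on the higher side, against 2.96%. These 10 were the 5 genes named as at least 4-fold lower, Ltb, Tnf and Tnfrsf18 below 0, and Cd27 and Tnfrsf9 above 0, while 12 of the 34 lay within 1 SD. A stricter floor left fewer genes. At 2 times the array median, 6 of 22 detected members were lower by 2-fold or more, against 2.22% of 9860 genes, and 1 was higher, against 2.07%. At 4 times the median, 5 of 20 were lower, against 1.73% of 8082 genes, and 0 were higher, against 1.74%.

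**Figure D1:**
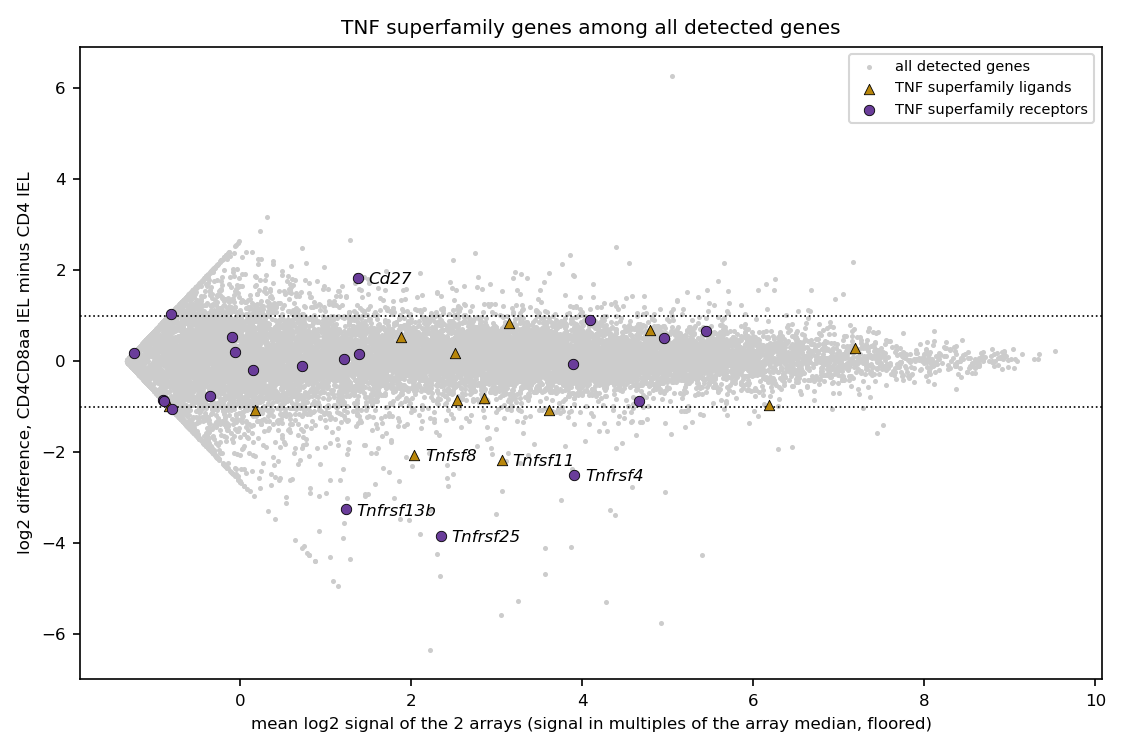
Log2 difference between CD4CD8aa IEL and CD4 IEL (vertical) against the mean log2 signal of the arrays (horizontal), with floored signals in multiples of the array median. Grey points are the 17376 detected genes, triangles the ligands and circles the receptors of the TNF superfamily, and dotted lines mark 2-fold. Tnfrsf25, Tnfrsf13b, Tnfrsf4, Tnfsf11 and Tnfsf8 lie below the main body of genes, and Cd27 above it.

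The promoters of the 5 genes at least 4-fold lower and of Cd27 are shown because these genes carry the largest differences. Each runs from 250 bases before to 50 bases after a RefSeq start site, 5′ to 3′ on the gene's strand, in GRCm38.p6. RefSeq lists 2 start sites for Tnfrsf25. Capitals mark matches on either strand to 4 motifs: the NF-kappa-B site, the AP-1 site TGANTCA, the Runx core TGTGGT and the ROR half-site AGGTCA.
Tnfrsf25, upstream start site, chr4:152115684-152115983, plus strand: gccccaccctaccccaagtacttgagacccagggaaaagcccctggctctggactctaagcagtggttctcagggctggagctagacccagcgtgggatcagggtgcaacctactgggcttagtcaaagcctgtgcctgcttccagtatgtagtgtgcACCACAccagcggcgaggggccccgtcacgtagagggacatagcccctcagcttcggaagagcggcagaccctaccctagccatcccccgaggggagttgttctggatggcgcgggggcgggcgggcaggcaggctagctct
Tnfrsf25, downstream start site, chr4:152116093-152116392, plus strand: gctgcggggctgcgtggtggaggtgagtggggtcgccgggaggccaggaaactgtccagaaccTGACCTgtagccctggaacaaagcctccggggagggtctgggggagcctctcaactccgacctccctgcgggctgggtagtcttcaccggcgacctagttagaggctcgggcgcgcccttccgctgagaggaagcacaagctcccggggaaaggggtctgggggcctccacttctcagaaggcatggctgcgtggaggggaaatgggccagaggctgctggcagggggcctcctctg
Tnfrsf13b, chr11:61126505-61126804, plus strand: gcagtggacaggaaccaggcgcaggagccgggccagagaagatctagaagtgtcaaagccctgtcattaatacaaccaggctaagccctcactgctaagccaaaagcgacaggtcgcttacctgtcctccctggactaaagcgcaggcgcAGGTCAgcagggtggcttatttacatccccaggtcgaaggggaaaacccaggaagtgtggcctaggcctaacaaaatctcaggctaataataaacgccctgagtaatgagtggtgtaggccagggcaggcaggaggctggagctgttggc
Tnfrsf4, chr4:156013445-156013744, plus strand: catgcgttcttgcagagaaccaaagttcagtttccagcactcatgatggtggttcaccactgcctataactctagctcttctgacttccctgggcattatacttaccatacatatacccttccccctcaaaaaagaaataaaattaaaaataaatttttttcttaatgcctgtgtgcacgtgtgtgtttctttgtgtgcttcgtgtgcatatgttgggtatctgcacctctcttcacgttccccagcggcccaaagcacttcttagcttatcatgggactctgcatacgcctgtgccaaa
Tnfsf11, chr14:78307994-78308293, minus strand: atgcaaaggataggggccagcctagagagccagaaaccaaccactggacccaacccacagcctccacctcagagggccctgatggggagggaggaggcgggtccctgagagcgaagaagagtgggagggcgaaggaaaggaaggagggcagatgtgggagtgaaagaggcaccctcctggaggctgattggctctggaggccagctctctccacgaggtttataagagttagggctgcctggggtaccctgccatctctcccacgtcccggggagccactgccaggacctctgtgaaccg
Tnfsf8, chr4:63861235-63861534, minus strand: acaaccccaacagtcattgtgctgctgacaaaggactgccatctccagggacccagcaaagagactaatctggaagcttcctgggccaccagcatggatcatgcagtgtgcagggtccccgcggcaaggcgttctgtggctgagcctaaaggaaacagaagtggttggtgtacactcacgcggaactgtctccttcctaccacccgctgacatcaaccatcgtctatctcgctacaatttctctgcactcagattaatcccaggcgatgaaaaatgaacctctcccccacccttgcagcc
Cd27, chr6:125236978-125237277, minus strand: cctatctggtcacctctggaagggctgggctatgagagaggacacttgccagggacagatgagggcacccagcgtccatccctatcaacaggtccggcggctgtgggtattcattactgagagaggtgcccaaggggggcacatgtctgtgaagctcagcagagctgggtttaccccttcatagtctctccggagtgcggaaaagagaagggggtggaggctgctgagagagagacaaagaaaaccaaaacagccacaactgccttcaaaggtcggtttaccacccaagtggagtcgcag
The upstream Tnfrsf25 window held 1 Runx match, the downstream Tnfrsf25 window and the Tnfrsf13b window held 1 ROR half-site each, and the other 4 windows held no match to any of the 4 motifs. No 2 of these matches overlapped. Across all 32851 RefSeq promoter windows of this length, 4.51% held the NF-kappa-B site, 7.81% the AP-1 site, 16.8% the Runx core and 16.3% the ROR half-site. These matches describe the letters of the windows only.

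The ligands Tnfsf11 and Tnfsf8 were well above the array median in CD4 IEL and much dimmer in CD4CD8aa IEL. Tnfsf11, whose product RANKL drives osteoclast and M cell differentiation, had a signal of 3.94 in CD4CD8aa IEL and 17.7 in CD4 IEL, a log2 difference of -2.17. Its second, dimmer probe set had 0.376 in CD4CD8aa IEL, below the floor, and 0.705 in CD4 IEL, at least 1.76-fold lower. Both probe sets of Tnfsf11 thus lay in the same direction. Tnfsf8, the ligand of CD30, had 2.01 in CD4CD8aa IEL and 8.41 in CD4 IEL, a log2 difference of -2.06. RANKL is also made by stromal and innate lymphoid cells, whose markers were measured beside it. The 7 stromal and endothelial markers summed to 6.16 in CD4CD8aa IEL and 26.9 in CD4 IEL, with 4 above the floor on each array. Pdgfrb made up most of this, with 3.11 in CD4CD8aa IEL and 22.4 in CD4 IEL, while Col1a1 lay below the floor on both. The list went both ways. Pdgfrb, Pecam1 and Kdr were at least 2-fold lower, against 6.26% of all detected genes, and 0 were 2-fold higher, against 6.65%. Pecam1 and Kdr were below the floor in CD4CD8aa IEL, at 0.211 and 0.371, and had 2.41 and 0.928 in CD4 IEL. Col1a2 had a log2 difference of 0.22. Cdh5 and Col3a1 were at least 1.94-fold and 1.96-fold higher, and all 3 had signals below the array median. The 6 markers of NK and innate lymphoid cells, among them Il7r and Id2, which T cells also express, summed to 418 in CD4CD8aa IEL and 552 in CD4 IEL. All 6 were lower in CD4CD8aa IEL, with a median log2 difference of -0.63, and 7853 of the 17376 detected genes were lower. Eomes and Klrb1c were at least 2-fold lower, against 6.26% of all detected genes, and 0 were 2-fold higher, against 6.65%. Eomes had 0.425 in CD4CD8aa IEL and 2.17 in CD4 IEL, and Klrb1c had 0.707 in CD4CD8aa IEL and 1.41 in CD4 IEL. Kit had 10.5 in CD4CD8aa IEL and 18.5 in CD4 IEL. Ncr1, the NK receptor NKp46, had 0.155 in CD4CD8aa IEL, below the floor, and 0.429 in CD4 IEL, at least 1.07-fold lower. The part of these cells in the ligand differences was not tested.

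TNF and the lymphotoxins were each about 2-fold lower. Tnf, the founding inflammatory cytokine, had 8.43 in CD4CD8aa IEL and 17.8 in CD4 IEL, a log2 difference of -1.08. Ltb, which encodes the membrane anchor of the lymphotoxin heterotrimer, was bright on both arrays, at 52.1 in CD4CD8aa IEL and 101 in CD4 IEL, a log2 difference of -0.96. Lta, its secreted partner, had 4.31 in CD4CD8aa IEL and 7.79 in CD4 IEL, a log2 difference of -0.85. Only Tnf reached 2-fold, but for Ltb the difference was 2.71 times the same-gene SD at its signal, for Tnf 2.38 times and for Lta 1.89 times. Tnfsf14, which encodes LIGHT, had 5.47 in CD4CD8aa IEL and 9.55 in CD4 IEL, a log2 difference of -0.80. A dim second probe set of Tnfsf14 had 0.0666 in CD4CD8aa IEL and 1.02 in CD4 IEL, at least 2.55-fold lower.

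Cd40lg and Cd70, which act on B cells, dendritic cells and other T cells, were lower but dim. Cd40lg, the CD40 ligand of helper T cells, had 0.781 in CD4CD8aa IEL and 1.65 in CD4 IEL, a log2 difference of -1.08, or 1.60 times the same-gene SD. Cd70, the ligand of CD27, had 0.195 in CD4CD8aa IEL, below the floor, and 0.792 in CD4 IEL, at least 1.98-fold lower. Without a floor, the log2 difference of Cd70 was -2.02.

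The remaining 5 ligands were higher in CD4CD8aa IEL, none by 2-fold. Tnfsf13b, which encodes the B cell survival factor BAFF, had 11.8 in CD4CD8aa IEL and 6.61 in CD4 IEL, a log2 difference of 0.84. Its other probe sets disagreed, at signals under 2 times the array median. The brighter of them gave a log2 difference of -0.04. The dimmer was below the floor in CD4CD8aa IEL and at least 1.81-fold lower. Tnfsf10, which encodes the death ligand TRAIL, had 35.2 in CD4CD8aa IEL and 21.9 in CD4 IEL, a log2 difference of 0.69, and its other probe sets gave 0.53 and 0.49. For TRAIL all 3 probe sets were therefore higher in CD4CD8aa IEL, each by less than 2-fold. Tnfsf4, the ligand of OX40, had 4.45 in CD4CD8aa IEL and 3.08 in CD4 IEL. Tnfsf9, the ligand of 4-1BB, had 6.07 in CD4CD8aa IEL and 5.36 in CD4 IEL. The log2 differences of Tnfsf4 and Tnfsf9 were 0.53 and 0.18, both within 1 same-gene SD. Fasl, the death ligand of cytotoxic T cells, was bright on both arrays, at 162 in CD4CD8aa IEL and 132 in CD4 IEL, a log2 difference of 0.29, and its second probe set gave -0.09.

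**Figure D2:**
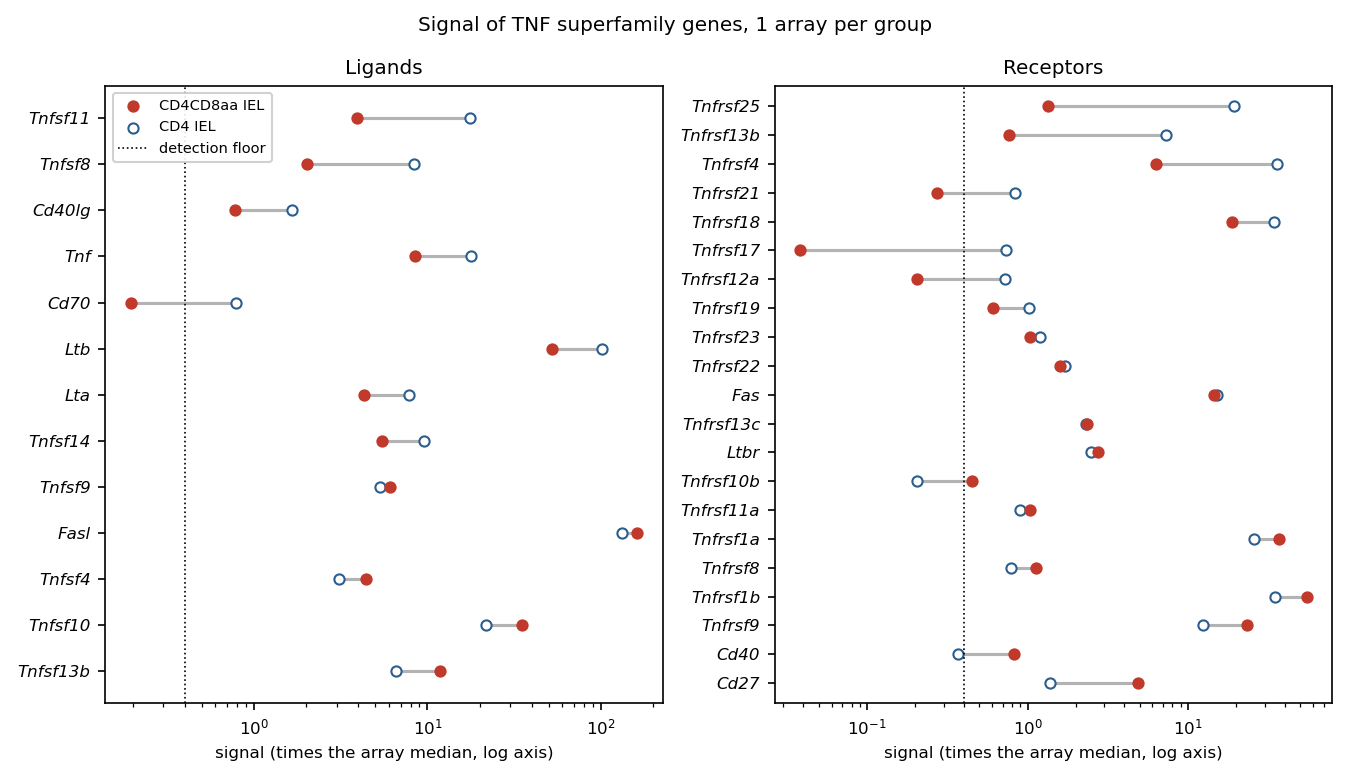
Signal of each detected TNF superfamily gene in CD4CD8aa IEL (filled) and CD4 IEL (open), in multiples of the array median on a log axis, for 13 ligands (left) and 21 receptors (right), with 1 array per group and no error bars. Genes run from the lowest to the highest log2 difference, and the dotted line is the detection floor of 0.4. The filled and open points of Tnfrsf25, Tnfrsf13b, Tnfrsf4, Tnfsf11 and Tnfsf8 stand far apart above the floor. Those of Tnfrsf17 are separated mainly below it, and those of Cd70 lie on either side of it.

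Costimulatory receptors of T cells went in both directions. Of the 8 listed, 7 were detected, 1 was higher and 2 were lower by 2-fold or more, and 4 lay between. Of all detected genes, 6.65% were higher and 6.26% lower by that measure. Tnfrsf25 had a signal of 1.35 in CD4CD8aa IEL and 19.2 in CD4 IEL, a log2 difference of -3.83, the lowest of the family. Tnfrsf4 had 6.33 in CD4CD8aa IEL and 35.7 in CD4 IEL, a log2 difference of -2.50. Both were far above the array median in CD4 IEL, and both were read from a single probe set. Tnfrsf18, which encodes GITR, a receptor abundant on regulatory and activated T cells, had 18.7 in CD4CD8aa IEL and 34.3 in CD4 IEL, a log2 difference of -0.87, or 2.13 times the same-gene SD.

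Cd27, Tnfrsf9 and Tnfrsf1b were higher. Cd27 had 4.90 in CD4CD8aa IEL and 1.38 in CD4 IEL, a log2 difference of 1.82, from a single probe set. Its difference shrank to 0.29 under a floor of 4 times the median, which both raises the CD4 signal to the floor and lies close under the CD4CD8aa signal. Tnfrsf9, which encodes 4-1BB, a receptor induced by activation, had 23.4 in CD4CD8aa IEL and 12.5 in CD4 IEL, a log2 difference of 0.91, and its second probe set gave 0.76. Tnfrsf1b, which encodes TNFR2, had 54.9 in CD4CD8aa IEL and 34.7 in CD4 IEL, a log2 difference of 0.66, while a dimmer probe set gave -0.50. The receptors OX40 and GITR on the one hand and 4-1BB and CD27 on the other, all TRAF-binding costimulators, therefore lay on opposite sides of 0. Tnfrsf8, which encodes CD30, stayed near the array median, at 1.13 in CD4CD8aa IEL and 0.783 in CD4 IEL. Tnfrsf14, the LIGHT and BTLA receptor HVEM, was below the floor on both arrays, at 0.212 in CD4CD8aa IEL and 0.112 in CD4 IEL.

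OX40 and GITR are high on regulatory T cells, whose 5 measured markers did not move together. Foxp3, their defining transcription factor, had 0.689 in CD4CD8aa IEL and 1.10 in CD4 IEL. Il2ra, the IL-2 receptor alpha chain, had 1.72 in CD4CD8aa IEL and 3.91 in CD4 IEL. Ikzf2, the transcription factor Helios, had 32.7 in CD4CD8aa IEL and 13.4 in CD4 IEL. By 2-fold or more, 1 member was higher and 1 lower, against 6.65% and 6.26% of all detected genes. All 5 lay above the floor on both arrays, and the signals summed to 202 in CD4CD8aa IEL and 250 in CD4 IEL. Ctla4 made up most of both sums, with 156 in CD4CD8aa IEL and 224 in CD4 IEL. Ikzf4 had 10.0 in CD4CD8aa IEL and 7.05 in CD4 IEL. The part of regulatory T cells in the receptor differences was not tested.

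Death domain receptors other than DR3 lay within 2-fold where both arrays were above the floor. Of the 5 listed, all were detected. At least 2-fold lower were 2, against 6.26% of all detected genes, and 0 were higher, against 6.65%. Tnfrsf1a, which encodes TNFR1, had 36.9 in CD4CD8aa IEL and 26.0 in CD4 IEL, a log2 difference of 0.51. Fas, the receptor of FasL, had 14.6 in CD4CD8aa IEL and 15.2 in CD4 IEL, a log2 difference of -0.05, which is 0.12 times the same-gene SD. Tnfrsf10b, the mouse TRAIL receptor, had 0.451 in CD4CD8aa IEL and 0.205 in CD4 IEL, at least 1.13-fold higher. Tnfrsf21, which encodes DR6, had 0.273 in CD4CD8aa IEL and 0.829 in CD4 IEL, at least 2.07-fold lower. Under a floor of 0.8 its log2 difference was -0.05. The second probe sets of Tnfrsf10b and Tnfrsf21 were below the floor on both arrays.

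Receptors best known from B cells had signals of 2.36 or less in CD4CD8aa IEL, and of these TACI was much higher in CD4 IEL. Tnfrsf13b had 0.763 in CD4CD8aa IEL and 7.30 in CD4 IEL, a log2 difference of -3.26. Its difference shrank to -1.87 under a floor of 2 times the median and to -0.87 under 4 times, since the CD4CD8aa signal lies below both. Tnfrsf17, which encodes BCMA, had 0.0382 in CD4CD8aa IEL and 0.732 in CD4 IEL, at least 1.83-fold lower. Tnfrsf13c, which encodes the BAFF receptor, had 2.36 in CD4CD8aa IEL and 2.30 in CD4 IEL, a log2 difference of 0.04. Cd40 had 0.819 in CD4CD8aa IEL and 0.368 in CD4 IEL, at least 2.05-fold higher, on a probe set that can match several transcripts, whereas another probe set gave 0.26 and the last was below the floor on both arrays.

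B cell and plasma cell markers were measured beside these receptors. Ms4a1, which encodes CD20, had 0.789 in CD4CD8aa IEL and 0.812 in CD4 IEL. The 6 B cell markers reported here summed to 3.68 in CD4CD8aa IEL and to 4.04 in CD4 IEL. All 6 were above the floor in CD4CD8aa IEL and 5 in CD4 IEL. Cd79b was the 1 member at least 2-fold lower, against 6.26% of all detected genes, and 0 were higher, against 6.65%. Igj, the antibody joining chain, was below the floor on both arrays. The 4 plasma cell markers, which include the T cell regulator Prdm1, summed to 38.8 in CD4CD8aa IEL and 25.4 in CD4 IEL, with 3 above the floor on each array. Sdc1, the plasma cell and epithelial syndecan, was the 1 member at least 2-fold lower, at 0.441 in CD4CD8aa IEL and 1.59 in CD4 IEL. At least 2-fold higher were 0, and the shares of all detected genes were again 6.26% lower and 6.65% higher. Derl3 had 3.35 in CD4CD8aa IEL and 1.76 in CD4 IEL, and Prdm1 had 34.7 in CD4CD8aa IEL and 21.8 in CD4 IEL. The 10 macrophage and dendritic cell markers, from cells that make BAFF and carry CD40, summed to 37.2 in CD4CD8aa IEL and 37.0 in CD4 IEL. All 10 were above the floor in CD4CD8aa IEL and 9 in CD4 IEL, and Csf1r, the CSF-1 receptor, had 10.2 in CD4CD8aa IEL and 9.79 in CD4 IEL.

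The receptors best known from stromal and epithelial cells had low signals on both arrays. Ltbr, the lymphotoxin beta receptor, had 2.76 in CD4CD8aa IEL and 2.49 in CD4 IEL, a log2 difference of 0.15. Tnfrsf19, which encodes TROY, had 0.605 in CD4CD8aa IEL and 1.02 in CD4 IEL, and its other 2 probe sets lay below the floor on both arrays. Tnfrsf12a, the TWEAK receptor Fn14, had 0.203 in CD4CD8aa IEL and 0.724 in CD4 IEL, at least 1.81-fold lower, on a probe set of a type that can match other transcripts, and its other probe set was below the floor on both arrays. Tnfrsf11a, which encodes RANK, had 1.03 in CD4CD8aa IEL and 0.893 in CD4 IEL, but a dimmer probe set was at least 2.51-fold higher. Tnfrsf11b, the soluble RANKL decoy osteoprotegerin, was below the floor on both arrays with both of its probe sets. Tnfrsf22 and Tnfrsf23, mouse decoy TRAIL receptors, had log2 differences of -0.10 and -0.20 at signals under 2 times the array median. Dimmer probe sets of Tnfrsf22, below the floor in CD4CD8aa IEL, were at least 1.36-fold and 1.49-fold lower. The 12 epithelial markers summed to 51.3 in CD4CD8aa IEL and 58.3 in CD4 IEL, all above the floor on both arrays. By 2-fold or more, 1 was higher and 2 lower, against 6.65% and 6.26% of all detected genes.

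**Figure D3:**
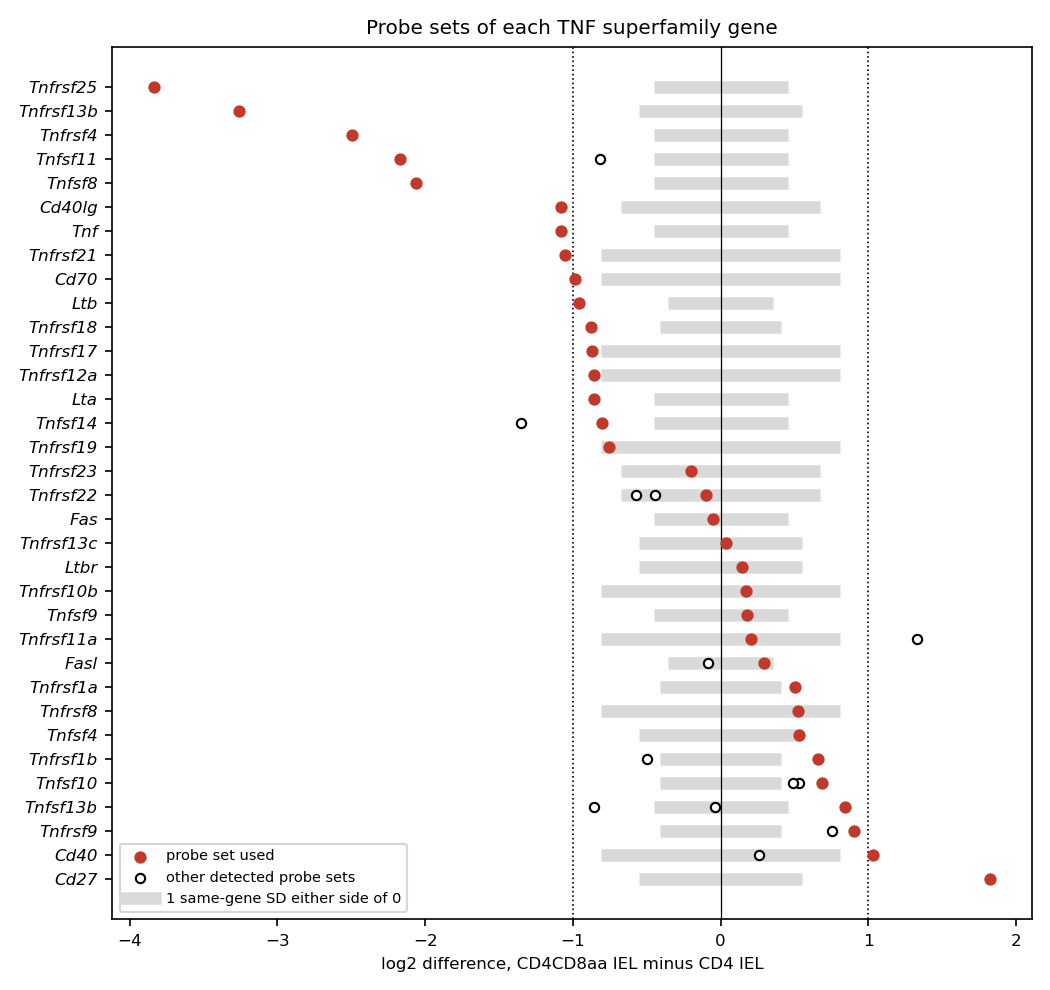
Log2 difference (CD4CD8aa IEL minus CD4 IEL, horizontal) of every detected probe set of each of the 34 detected genes (vertical), with the probe set used filled and the others open. Grey bars span 1 same-gene SD either side of 0 and dotted lines mark 2-fold. The probe sets of Tnfsf10 and Tnfrsf9 lie close together, and those of Tnfsf13b and Tnfrsf1b lie on both sides of 0.

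Ligands were set beside the receptors they are known to bind. Of the 20 pairs listed, 17 had both members detected, drawn from 13 ligands and 14 receptors, so that genes recur among the pairs. In 10 pairs the ligand lay below 0 and the receptor above it, in 4 the ligand lay above and the receptor below, in 3 both lay above, and in 0 both lay below. Of all detected members, 8 of 13 ligands lay below 0 and 10 of 21 receptors above it. How many opposite pairs these numbers alone would give was not worked out. The widest gaps were between Tnfsf13b at 0.84 and Tnfrsf13b at -3.26, between Tnfsf4 at 0.53 and Tnfrsf4 at -2.50, and between Cd70 at -0.98 and Cd27 at 1.82. Cd70 lay below the floor in CD4CD8aa IEL, so its value is a bound. Tnfsf8 at -2.06 stood against Tnfrsf8 at 0.53, and Tnfsf11 at -2.17 against Tnfrsf11a at 0.20. Tnf at -1.08 stood against Tnfrsf1a at 0.51 and Tnfrsf1b at 0.66, and Fasl at 0.29 against Fas at -0.05. Several of these values lie within 1 same-gene SD of 0, and for these the side of 0 carries little weight.

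**Figure D4:**
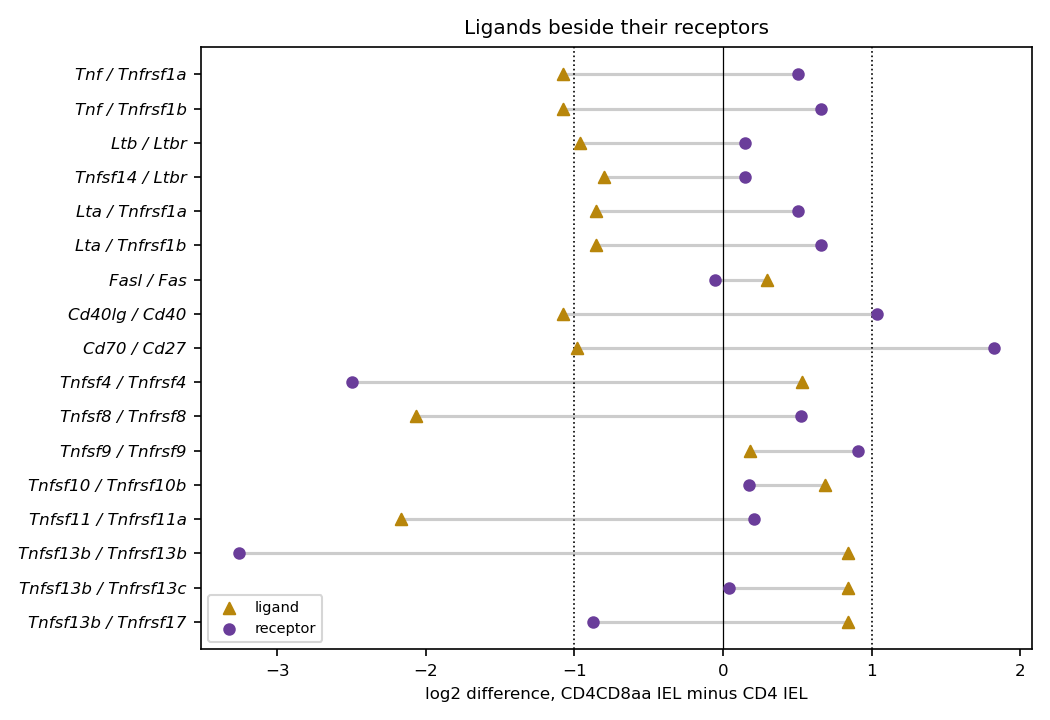
Log2 difference (CD4CD8aa IEL minus CD4 IEL, horizontal) of the ligand (triangle) and the receptor (circle) in each of the 17 pairs with both members detected (vertical), with dotted lines at 2-fold. The symbols fall on opposite sides of 0 in 14 of the 17 pairs, and no pair has both below 0. Genes recur among the pairs, and several values lie within 1 same-gene SD of 0.

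Members that lie next to each other in the genome were compared by RefSeq gene order. All 36 symbols were found there, 8 of them on chromosome 4 and 8 on chromosome 17. Ltb, Tnf and Lta are consecutive protein-coding genes on chromosome 17, and all 3 were lower, with log2 differences of -0.96, -1.08 and -0.85. Tnfsf9, Cd70 and Tnfsf14, also consecutive on chromosome 17, had 0.18, -0.98 and -0.80, where the value of Cd70 is a bound set by the floor. Tnfrsf4 and Tnfrsf18, adjacent on chromosome 4, had -2.50 and -0.87. Tnfrsf1b and Tnfrsf8, likewise adjacent on chromosome 4, had 0.66 and 0.53. Cd27, Ltbr and Tnfrsf1a, which lie close together on chromosome 6 with 1 protein-coding gene between each pair of neighbours, had 1.82, 0.15 and 0.51. The size of the difference thus varied within these groups, while the sign was shared in all but that of Tnfsf9, Cd70 and Tnfsf14. The values of Tnfsf9, Tnfrsf8 and Ltbr lay within 1 same-gene SD of 0, so their sign carries little weight.

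Genes that relay signals from these receptors mostly lay within 2-fold. Of 36 genes listed, 35 were measured, all above the floor on both arrays, with a median log2 difference of 0.10. At least 2-fold lower was 1 of them, or 2.86%, against 6.26% of all detected genes, and 0 were at least 2-fold higher, against 6.65%. Most of the list was bright, however, and dim genes pass 2-fold more often. Of the 9862 genes whose brighter array reached 2 times the median, 3.91% were lower and 3.45% higher. The counts of the signalling list lay near these shares. The exception was Traf1, an adaptor induced by NF-kappa-B, with 24.5 in CD4CD8aa IEL and 62.2 in CD4 IEL, a log2 difference of -1.34. Its other probe set had 23.2 in CD4CD8aa IEL and 22.6 in CD4 IEL, a difference of 0.04, so the probe sets of Traf1 disagreed. Tnfaip3, the NF-kappa-B inhibitor A20, had 316 in CD4CD8aa IEL and 292 in CD4 IEL, and a dimmer probe set gave -1.19. Ikbkb, the IKK beta kinase, had 120 in CD4CD8aa IEL and 92.1 in CD4 IEL, but a much dimmer probe set had 2.54 in CD4CD8aa IEL and 0.499 in CD4 IEL, a log2 difference of 2.34, and another gave -0.17. Cyld, a deubiquitinase, had 92.1 in CD4CD8aa IEL and 87.7 in CD4 IEL. Tab2, an adaptor of the kinase TAK1, had 84.0 in CD4CD8aa IEL and 112 in CD4 IEL, a log2 difference of -0.41, and its other probe set had 9.88 in CD4CD8aa IEL and 21.6 in CD4 IEL, a difference of -1.13. The other probe sets past 2-fold were 1 each of Bid, a BH3-only death protein, and Map3k7, the kinase TAK1, with 1.13 and 1.18 in CD4CD8aa IEL and both below the floor in CD4 IEL. Rbck1, a subunit of the linear ubiquitin ligase complex, had 74.0 in CD4CD8aa IEL and 48.1 in CD4 IEL, the highest log2 difference of the list at 0.62. Birc3, which encodes the ubiquitin ligase cIAP2, had 62.0 in CD4CD8aa IEL and 74.6 in CD4 IEL, and these bright signalling genes thus lay within 2-fold on the probe sets used.

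**Figure D5:**
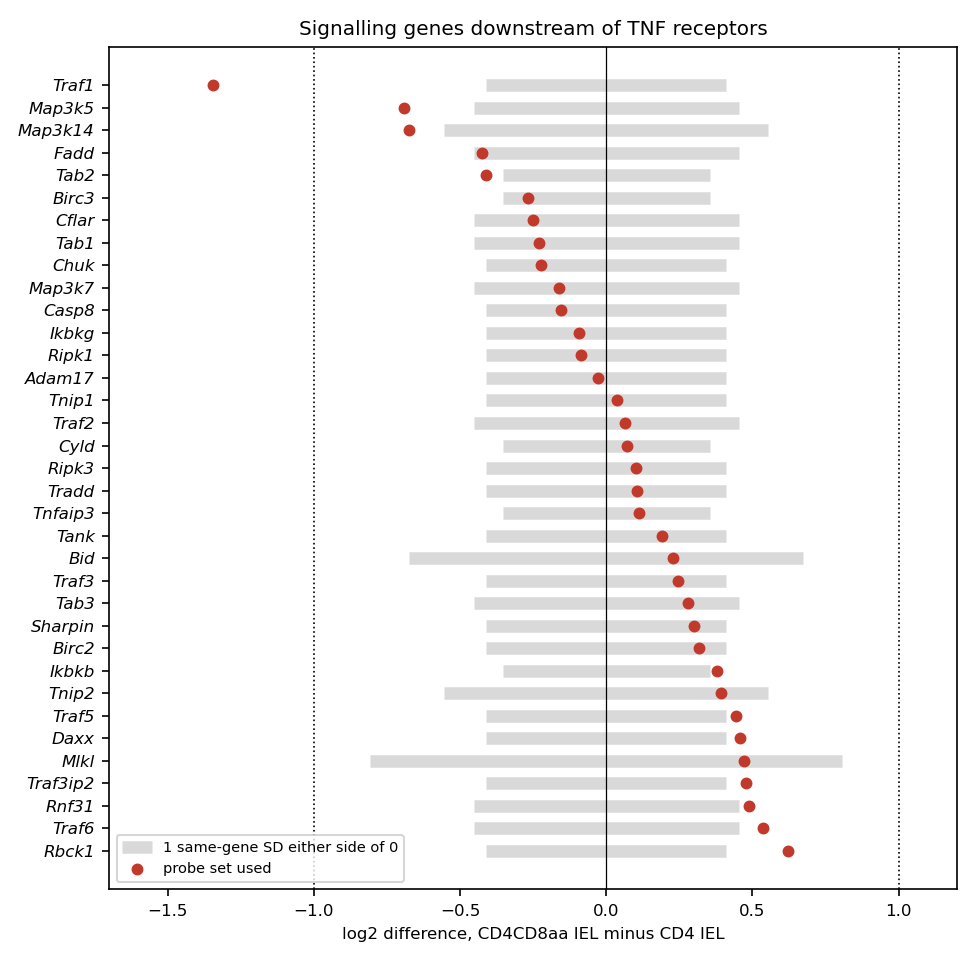
Log2 difference (CD4CD8aa IEL minus CD4 IEL, horizontal) of 35 signalling genes of TNF receptors (vertical), from the probe set used. Grey bars span 1 same-gene SD either side of 0 and dotted lines mark 2-fold, which Traf1 alone passes, at -1.34.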

How the data were processed

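CD4CD8aa IEL and CD4 IEL were each measured on 1 single-colour Affymetrix mouse array. The submitters' processing notes name GCOS 1.2, and the series' design text names GeneSpring GX10. Background correction and probe summarisation: not given in the sources used here. Intensities were deposited by the authors raw and divided by the array median, per the file headers, the second rounded to 2 decimals. The full quotient was recomputed here and matched the series matrix to within 4.98e-08. The authors' deposited log2 and linear fold are CD4 over CD4CD8aa, per the file headers, so their sign is opposite. The deposited log2 fold and the unfloored difference computed here summed to 0 within 5e-10. Columns of present or absent calls, 2 in number, name no sample and were left aside.

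Of 45101 probe sets, 64 controls, 1399 with several symbols, 5821 with none and 35 with a symbol turned into a date were left out. The same-gene SD was pooled within 6 bands of signal. Counts use 2-fold, and the procedure was checked on simulated data (Python 3.11.15, pandas 2.3.3, numpy 2.4.6). Every detected member was named. Of the signalling genes, those at least 2-fold apart and the 6 brightest by mean log2 signal were named. Members, lists, pairs and motifs were chosen with earlier results of these data known. Of the B cell markers listed, 1 is not reported here and is left out of the list's sum. Promoter windows come from RefSeq, which held 32 for 28 members. The files name no genome build, so RefSeq serves only for gene order and promoter sequence.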

Additional observations from a re-analysis of the deposited data

How the results depend on the processing

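The alternatives covered the floor, the scaling, the choice of probe set and the source of the values. The 8 members at least 2-fold lower became 5 under a floor of 4 times the array median, where 20 members were detected, and were 4 among ligands only and 4 among receptors only. Under the other settings their number lay between 6 and 11. The 2 members at least 2-fold higher became 4 when no floor was set. They became 1 under a floor 2 times as high, under a floor of 2 times the array median, with median centring over detected genes, with the median over the probe sets of a gene and without probe sets ending in _s_at or _x_at, which was added after seeing the data. They became 0 under a floor of 4 times the array median and 0 among ligands only. Where they became 1, the member lost was Cd40, whose difference lay between 0.03 and 1.15 where it was detected. The median of -0.15 over the family was -0.85 among ligands only, and between -0.43 and -0.01 under the settings that kept both roles. Tnfrsf25, Tnfrsf4, Tnfsf11, Tnfsf8 and Tnf stayed at least 2-fold lower under all 11 settings, and Cd40lg under the 9 in which it was detected. The difference of Tnfrsf25 ran from -3.89 to -2.26, of Tnfsf8 from -2.13 to -1.07 and of Tnfsf11 from -2.23 to -1.49. Tnfrsf13b and Cd27 missed 2-fold only under a floor of 4 times the median, where the dimmer array is set to the floor by construction. Of 343 values for single members, 328 moved by no more than 1 same-gene SD, 15 moved by more, and none that was at least 2-fold changed sign. Many of these values could hardly move. The series matrix holds the same values, and the highest signal on either array chose the same probe sets. Raw signals and median centring shift nearly all members equally, and a gene with 1 probe set has no other to choose. The 328 and the 11 settings thus overstate how far the values were tried. No paired analysis was possible because each group has 1 array, and for the same reason no array could be left out.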

Other observations

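Probe sets that name several family genes belong to no single member. The probe set shared by Tnfsf12, which encodes TWEAK, and the Tnfsf12-Tnfsf13 readthrough had a signal of 1.86 in CD4CD8aa IEL and 1.77 in CD4 IEL. A second, which names Tnfsf13 (APRIL) as well, had 0.0296 in CD4CD8aa IEL and 0.605 in CD4 IEL. The probe set shared by Tnfrsf22 and Tnfrsf23 had 0.473 in CD4CD8aa IEL and 0.538 in CD4 IEL. Tnfsf15, Tnfsf18 and Tnfrsf26 were not analysed here.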
